A study of Gallus gallus with 60 samples.

Results

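The miR-29 family was followed in Tibetan chicken from whole embryos to muscle of 12-year-old birds and in 5 further tissues. Its members were taken by name, as every entry of the deposited tables that begins gga-miR-29a, gga-miR-29b or gga-miR-29c, whichever arm of the hairpin it comes from. 7 entries met this rule among 1049 miRNAs listed in either table, and all 7 were listed in both: gga-miR-29a-3p, gga-miR-29b-3p and gga-miR-29c-3p, and the 5p arms gga-miR-29a-5p, gga-miR-29b-1-5p, gga-miR-29b-2-5p and gga-miR-29c-5p. The prefix gga stands for Gallus gallus.

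Small RNA had been sequenced in 60 samples, with 3 samples in each of 20 groups. Pectoral muscle was sampled at embryonic days 9, 12, 15, 18 and 20 (E9 to E20), at 1, 36, 100 and 300 days after hatching (D1 to D300) and at 3, 5, 8 and 12 years (Y3 to Y12). Liver, ovary, brain, spleen and kidney were sampled at D300. All groups are Tibetan chickens, with no treatment or engineered allele in the labels, and all samples are bulk tissue. The labels describe every sample as raised on a poultry farm, whereas by the methods of the study the embryos came from bought fertile eggs that were incubated, and the source of the older birds is not given there. E5 and E7 are labelled as muscle, whereas the methods of the study describe entire embryos at these ages, so these 6 samples were compared only with each other. The labels give 3 years for Y3 and the methods give another age. Following the study, the muscle stages form an early embryonic period (Pre_E, E9 and E12, n = 6), a late embryonic period (Lat_E, E15 to D1, n = 12) and a postnatal period (Bir_G, D36 to Y12, n = 21). The labels do not say which samples came from the same bird, so p-values measure only the spread between these samples.

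miR-29 is a small family of miRNAs whose 3p arms are the strands usually loaded into Argonaute, and these share the seed with which a miRNA finds its targets. In mammals the family is best known for repressing collagens, elastin, fibrillin and other proteins of the extracellular matrix, and it is low in several kinds of fibrosis. In mouse muscle cells it has also been described as a promoter of myoblast differentiation. The hairpins lie in pairs: in the RefSeq gene table of the chicken, assembly GRCg7b, the genes MIR29B1 and MIR29A are neighbours with 0 genes listed between them, and so are MIR29C and MIR29B2. gga-miR-29b-3p can come from either pair, while each 5p arm comes from 1 hairpin only and so separates the pairs.

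Values are those called TPM by the authors, which behave as reads scaled to a library total, and fold changes below are differences of log2(TPM + 1), a scale that understates changes of low miRNAs. In 56 samples the values could be turned back into whole reads, with library totals of 9347754 to 13060558 reads, so 3 reads, taken as the smallest detectable amount, equal 0.230 to 0.321 TPM. The sum over every listed miRNA was 427686 to 625484 TPM in samples of Pre_E, 294507 to 541736 TPM in samples of Lat_E and 657870 to 875328 TPM in samples of Bir_G. The labelled tissues carried their markers: the summed skeletal muscle miRNAs (gga-miR-133a-3p, gga-miR-1a-3p, gga-miR-206 and gga-miR-499-5p) lay at 374480 to 393778 TPM in D300 muscle and at most 3592 TPM in the other tissues, gga-miR-122-5p at 6374 to 7494 TPM in liver, the brain markers at 47359 to 63190 TPM in brain and the gonad markers at 644 to 1221 TPM in ovary. The muscle sum was almost wholly gga-miR-133a-3p, at a mean of 380746 TPM in D300 muscle. gga-miR-1a-3p was 930 to 1156 TPM there and at most 27.3 TPM in the other tissues. gga-miR-499-5p separated less, at 63.5 to 75.5 TPM against 34.5 to 59.3 TPM in spleen, and gga-miR-206 was at 0 in 1 D300 muscle sample. The kidney list was not raised in the kidney samples, with 9.85 to 35.1 TPM for the 2 of 3 markers that were listed against 37.8 to 134 TPM in D300 muscle. Of 80 miRNAs at 100 TPM or more in every Bir_G sample, 5 were listed at 0 in at least 1 of the 18 embryonic and hatchling muscle samples, gga-miR-21-5p in 11 of them; none of the 5 was a miR-29 member.

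gga-miR-29a-3p and gga-miR-29c-3p had the same value in 38 of 60 samples, among them all 30 from E5 to D100. In the other 22 they differed by at most 9 reads, or 0.0336% of the value. These entries were therefore treated as 1 measurement, given here as gga-miR-29a-3p, and reads from the 29a and 29c hairpins cannot be told apart in it. How the authors assigned reads that match several related miRNAs is not given in the sources used here, and gga-miR-29b-3p is close in sequence as well. The 7 entries thus hold 6 separate measurements, and a count of members called includes gga-miR-29c-3p whenever it includes gga-miR-29a-3p.

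The dominant pattern was a postnatal rise of the 3p arms. gga-miR-29a-3p averaged 42.6 TPM in Lat_E and 2573 TPM in Bir_G, a ratio of 60.5. gga-miR-29b-3p averaged 3.66 and 338 TPM, a ratio of 92.3. For neither miRNA did any of the 21 postnatal samples overlap the 18 earlier muscle samples. This was not particular to the family. gga-miR-101-3p lay at 134 to 570 TPM in the earlier samples and 6355 to 18071 TPM in the postnatal ones, and gga-miR-142-3p at 1.94 to 17.4 TPM and 107 to 301 TPM. The share of all miRNAs without overlap was not counted. Among the listed miRNAs of a sample, gga-miR-29a-3p ranked 100 to 157 from E9 to D1 and 21 to 33 from D300 to Y12, where 1 is the most abundant.

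Before hatching the level of gga-miR-29a-3p was low and uneven. In whole embryos it was 38.9, 17.3 and 29.6 TPM at E5 and 40.0, 23.6 and 22.9 TPM at E7. In pectoral muscle it was 27.9, 26.5 and 51.8 TPM at E9, and 76.4, 77.7 and 29.6 TPM at E12. At E15 it reached 70.4, 98.0 and 82.6 TPM, the highest level before D36. It was then 43.1, 15.8 and 18.5 TPM at E18, 28.8, 24.9 and 45.1 TPM at E20, and 46.3, 24.2 and 13.2 TPM at D1. The E15 samples lay above every E18, E20 and D1 sample but overlapped E12.

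After D1 all 3 samples of each successive stage lay higher until D300. At D36 gga-miR-29a-3p was 298, 332 and 398 TPM, at D100 it was 785, 1012 and 894 TPM, and at D300 it was 2738, 2396 and 1849 TPM. The 3 stages did not overlap each other. At Y3 the values were 4045, 1954 and 3730 TPM, with 1 sample within the D300 range and the others above it. The Y5 samples held 3152, 3787 and 3636 TPM, the Y8 samples 4465, 3278 and 4116 TPM and the Y12 samples 3112, 4514 and 3548 TPM. These 3 oldest stages overlapped one another.

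gga-miR-29b-3p followed the same course at a lower level. It was 1.41 to 2.86 TPM in the 6 whole embryos and 1.03 to 8.37 TPM in the 18 muscle samples from E9 to D1, and the 22 libraries of E5 to D1 with whole reads held 11 to 86 reads of it. The highest mean before D36 was again that of E15, with samples at 4.67, 8.37 and 7.54 TPM. These overlapped E12, which reached 5.82 TPM, and E20, which reached 4.99 TPM. At D36 it was 20.1, 22.0 and 24.7 TPM, at D100 it was 89.2, 95.9 and 70.4 TPM, and at D300 it was 264, 210 and 215 TPM. The stages D36, D100 and D300 were again separate from each other. The later samples held 460, 216 and 480 TPM at Y3, 587, 496 and 482 TPM at Y5, 611, 545 and 649 TPM at Y8, and 375, 628 and 551 TPM at Y12. The Y3 sample with the low gga-miR-29a-3p also had the low gga-miR-29b-3p.

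**Figure D1:**
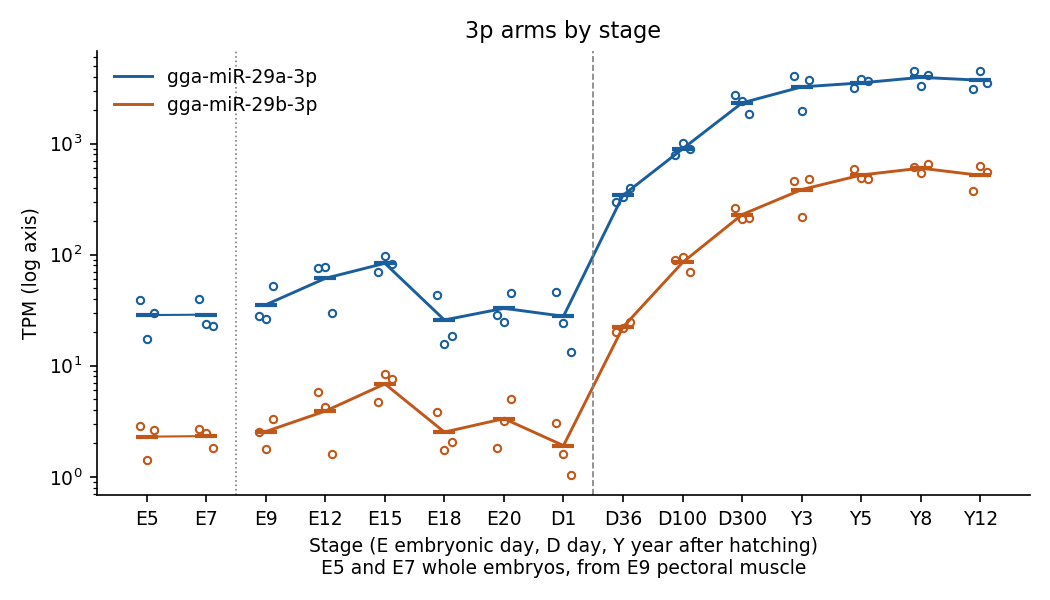
Level of gga-miR-29a-3p and gga-miR-29b-3p (TPM, log axis) at each stage, with 1 open circle per sample, a bar at the mean of the 3 samples and lines joining the means; E5 and E7 are whole embryos, left of the dotted line, and the dashed line marks the step from D1 to D36. All postnatal samples from D36 lie above all earlier ones, and means of gga-miR-29a-3p go from 27.9 TPM at D1 to 343 TPM at D36 and 3953 TPM at Y8.

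In the comparison of periods, limma called a miRNA at a Benjamini-Hochberg adjusted p of at most 0.05 with an absolute log2 difference of at least 1. Between Lat_E and Bir_G 6 of the 7 members were called, all higher in Bir_G, where 27.8% of 731 miRNAs were called and 13.8% were called higher. The difference of gga-miR-29a-3p was 5.76 (SE 0.417, adjusted p = 6.5e-14, limma) and that of gga-miR-29b-3p was 5.73 (SE 0.498, adjusted p = 6.0e-12, limma). They ranked 7th and 9th of 731 by size of the rise. The median difference over all 731 miRNAs was -0.03 and over the 186 that averaged 10 TPM or more it was 0.26, so that relative to the latter the difference of gga-miR-29a-3p was 5.49. With gga-miR-133a-3p, the most abundant muscle miRNA, left out of the scaling it was 5.12. Of the miRNAs called, 49.8% were higher in Bir_G, against 40.8% when samples were centred on the median miRNA and 35.7% when gga-miR-133a-3p was left out.

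In muscle, where all samples are bulk tissue, more cells of a type and more of a miRNA per cell cannot be told apart. Markers of some other cell types moved with the same step. The summed blood and immune cell miRNAs (4 of 6 listed, without gga-miR-223 and gga-miR-451) were 63.2 to 301 TPM in Lat_E and 2076 to 9661 TPM in Bir_G, and the summed endothelial miRNAs (gga-miR-126-3p and gga-miR-126-5p) were 1848 to 6455 TPM and 6876 to 12964 TPM. Neither sum overlapped between the periods, and no listed marker of these sums was at 0 in every sample of either period. The mesenchyme list (gga-miR-199-5p, gga-miR-199-3p and gga-miR-214) overlapped, at 6948 to 46780 TPM in Lat_E and 8746 to 33177 TPM in Bir_G. Its members differed. gga-miR-214 was called lower in Bir_G and did not overlap, at 911 to 12282 TPM in Lat_E and 83.4 to 488 TPM in Bir_G. Neither gga-miR-199-5p (0.26) nor gga-miR-199-3p (-0.50) was called. The epithelial list (gga-miR-200b-3p and gga-miR-429-3p) was lower in Bir_G, with overlap, at 4.61 to 177 TPM in Lat_E and 1.22 to 20.3 TPM in Bir_G. The skeletal muscle list was higher, with overlap, at 71489 to 224864 TPM and 211712 to 393778 TPM. The liver, brain, gonad and kidney lists overlapped as well. Of the 2 gonad markers, 1 was at 0 in every sample of Lat_E and 1 in every sample of Bir_G. The part of these cell types in the rise of miR-29 was not tested.

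Between the embryonic periods limma called 0 of 7 members, and 0 reached an unadjusted p of 0.05, while 19.3% of 760 miRNAs were called, 2.11% higher and 17.2% lower. edgeR on the recovered reads also called 0. The difference of gga-miR-29a-3p from Pre_E to Lat_E was -0.30 (SE 0.416, approximate 95% interval -1.11 to 0.52), and it turned to 0.63 when samples were centred on the median miRNA and to 0.44 when gga-miR-133a-3p was left out of the scaling. For gga-miR-29b-3p it was 0.07 (SE 0.316, approximate 95% interval -0.55 to 0.68). The median of the 179 miRNAs that averaged 10 TPM or more fell by 0.84 over the same comparison, and 10.9% of the miRNAs called were higher in Lat_E, against 77.4% with centring and 28.2% without gga-miR-133a-3p. The whole embryos at E5 and E7 gave 0 members called by limma and 0 that reached an unadjusted p of 0.05, against 7.03% of 768 miRNAs called, and edgeR called 0.

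Early embryonic and postnatal muscle were compared in the same way. 6 of 7 members were called higher in Bir_G than in Pre_E, where 36.1% of 785 miRNAs were called and 11.5% called higher. gga-miR-29a-3p differed by 5.46 (SE 0.542) and gga-miR-29b-3p by 5.80 (SE 0.683), the latter 6th of 785 by size of the rise. Of the miRNAs called here 31.8% were higher in Bir_G, against 46.2% with centring. This comparison shares its postnatal samples with the one before.

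**Figure D2:**
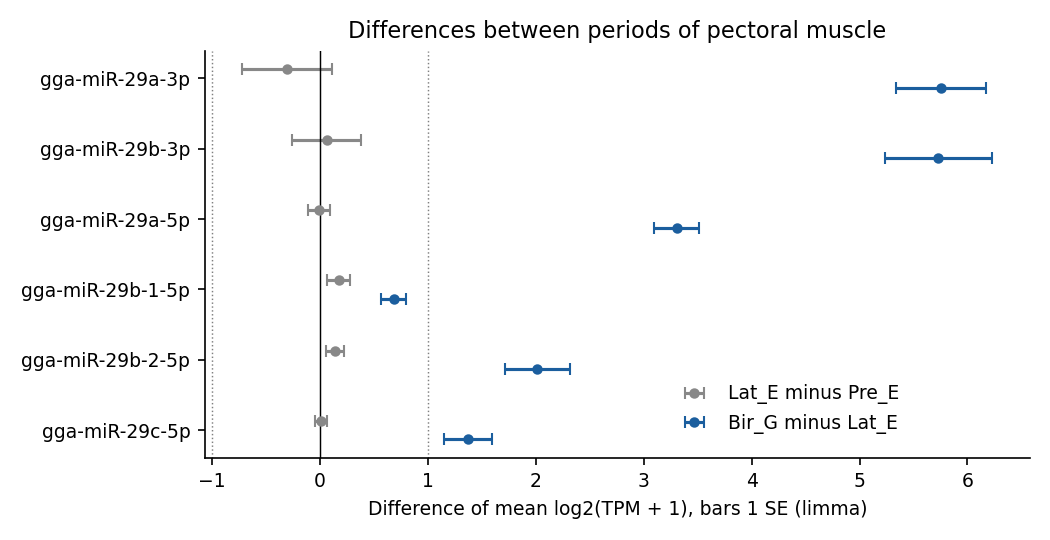
Difference of mean log2(TPM + 1) between periods of pectoral muscle for 6 members (gga-miR-29c-3p, whose values match gga-miR-29a-3p, is left out), as points with bars of 1 SE from limma; grey points are Lat_E minus Pre_E, blue points Bir_G minus Lat_E, and dotted lines mark the limit of 1. The grey points lie within -0.30 and 0.18, and the blue points run from 0.69 for gga-miR-29b-1-5p to 5.76 for gga-miR-29a-3p.

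Fitting 1 mean per stage over the 39 muscle samples placed the steps. Of 12 steps between adjacent stages, 4 held calls of members, 13 in all. limma called 0 members at the other 8, where the share of miRNAs called was 10.9% from E9 to E12, 3.55% from E12 to E15, 0.368% from E18 to E20, 2.21% from E20 to D1, 2.7% from D300 to Y3, 0.735% from Y3 to Y5, 0.368% from Y5 to Y8 and 0.735% from Y8 to Y12, and 1 member reached an unadjusted p of 0.05 from E12 to E15. From E15 to E18 gga-miR-29a-3p fell by 1.78 on the log2 scale (SE 0.389, adjusted p = 0.0050, limma) and gga-miR-29b-3p fell by 1.17 (SE 0.330, adjusted p = 0.037, limma), at a step where 2.21% of 816 miRNAs were called and 1.72% called lower. Neither call held without replicate 2 or replicate 3, or when the 6 samples of these stages were fitted alone, and gga-miR-29b-3p differed by -0.88 with centring on the median.

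The step from D1 to D36 was the largest for gga-miR-29a-3p, gga-miR-29b-3p and gga-miR-29a-5p. 4 members were called, all higher, at a step where 21.1% of 816 miRNAs were called, 14.6% higher and 6.5% lower. gga-miR-29a-3p rose by 3.73 (SE 0.389, adjusted p = 8.8e-09, limma), gga-miR-29b-3p by 3.06 (SE 0.330) and gga-miR-29a-5p by 2.15 (SE 0.215). The 171 miRNAs that averaged 10 TPM or more had a median difference of 0.98 at this step, and relative to it gga-miR-29a-3p was 2.75 higher. The share of higher calls was 69.2%, against 21.9% with centring and 46.3% without gga-miR-133a-3p, and the same number of members, 4 higher and 0 lower, was called under each.

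From D36 to D100 gga-miR-29b-3p was the only miRNA of 816 called (0.123%), with a rise of 1.88 (SE 0.330, adjusted p = 0.0038, limma). The call was lost with each of the 3 replicates left out in turn and with a pseudocount of 0.1 TPM. gga-miR-29a-3p differed by 1.39 (SE 0.389, adjusted p = 0.12, limma), 3rd of 816 by size, and its 3 samples at D100 lay above those at D36. All 7 members reached an unadjusted p of 0.05 at this step.

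From D100 to D300 5 members were called, all higher, where 6.86% of 816 miRNAs were called and 3.19% called higher. gga-miR-29b-2-5p rose by 1.83 (SE 0.197), gga-miR-29c-5p by 1.53 (SE 0.183), gga-miR-29b-3p by 1.42 (SE 0.330) and gga-miR-29a-3p by 1.36 (SE 0.389, adjusted p = 0.022, limma). The call of gga-miR-29a-3p was lost with each replicate left out in turn, and that of gga-miR-29b-3p without replicate 2 or replicate 3. limma called 0 members at each of the 4 steps after D300, with differences of gga-miR-29a-3p between -0.09 and 0.43 and adjusted p of 0.90 to 1.00 in limma, and 1 member reached an unadjusted p of 0.05, at the step from D300 to Y3. edgeR was not run on these steps.

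Within the postnatal period the slope over stage order passed for 6 of 7 members, all rising, where 17.7% of 576 miRNAs passed and 3.65% passed with a rise. gga-miR-29b-3p rose by 0.72 per stage (SE 0.0838) and gga-miR-29a-3p by 0.54 (SE 0.0712, adjusted p = 1.4e-05, limma). The share of passing miRNAs that rose was 20.6%, against 79.6% with centring. Over D300 to Y12 alone, a choice made after the data were seen, limma passed 0 of 7 members, with 3 that reached an unadjusted p of 0.05 and 0.358% of 559 miRNAs passing. There the slope of gga-miR-29a-3p was 0.17 (adjusted p = 0.18, limma) and that of gga-miR-29b-3p was 0.30 (adjusted p = 0.074, limma). From E9 to D1 limma passed 0 members and 0 reached an unadjusted p of 0.05, where 42% of 760 miRNAs passed. With centring 5 members passed there, all rising, as did 552 of all 760 miRNAs, 482 of them rising, so the members' count is near the background. The share of passing miRNAs that rose went from 6.27% to 87.3%. The polynomial of degree 2 over E9 to Y12 passed for all 7 members, with R-squared of 0.61 for gga-miR-29b-1-5p to 0.85 for gga-miR-29b-3p, against 26.6% of 816 miRNAs passing and 6.86% passing with a rise.

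The 5p arms, usually the strand that is not loaded, were rare in every sample and rose at different times. In the 22 libraries of E5 to D1 with whole reads, gga-miR-29a-5p had 0 to 5 reads, gga-miR-29b-1-5p 0 to 6 reads, gga-miR-29b-2-5p 0 to 4 reads and gga-miR-29c-5p 0 to 2 reads. These numbers are at or near the detectable amount of 3 reads. Their means were 2.14, 2, 1.27 and 0.455 reads in this order, and differences among the arms were not tested. In the 14 libraries of D300 to Y12 with whole reads the medians were 165, 12, 72 and 28.5 reads in the same order.

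gga-miR-29a-5p was the first of the 5p arms to rise clear of its earlier samples, at D36. gga-miR-29a-3p rose at the same step, but from a level already detected, 13.2 to 98.0 TPM from E9 to D1. Its reads cannot be told apart from those of gga-miR-29c-3p, so the timing of either 3p arm alone is not known. gga-miR-29a-5p was 0, 0.170 and 0 TPM at D1, 3.85, 3.38 and 3.78 TPM at D36, 5.25, 11.8 and 7.81 TPM at D100 and 12.5, 9.34 and 9.83 TPM at D300. From Y3 to Y12 it ranged from 10.3 to 23.4 TPM. All samples at D36 lay above all earlier ones. Between Lat_E and Bir_G it rose by 3.31 (SE 0.211, adjusted p = 2.4e-15, limma).

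The arms of the other pair came later than gga-miR-29a-5p. So did gga-miR-29b-1-5p, of the same pair as 29a, by the first stage clear of earlier samples. Its means were 0.409 TPM at D36 and 1.13 TPM at D100. Set against their D300 means, the pairs did differ at D100. gga-miR-29a-5p averaged 8.295 TPM at D100 and 10.56 TPM at D300, and gga-miR-29b-1-5p 1.13 and 1.0504 TPM, with overlapping samples. gga-miR-29b-2-5p averaged 1.21 and 6.504 TPM, and gga-miR-29c-5p 0.459 and 3.214 TPM. gga-miR-29b-1-5p rests on few reads, and this difference between the pairs was not tested. gga-miR-29b-2-5p was 0.376, 0.0965 and 0.360 TPM at D36, no higher than the 0.192, 0.340 and 0.376 TPM of D1, then 0.724, 2.29 and 0.601 TPM at D100 and 8.09, 5.23 and 6.19 TPM at D300. gga-miR-29c-5p was 0.0940, 0.0965 and 0.0900 TPM at D36, or 1 read in each sample, 0.271, 0.706 and 0.401 TPM at D100 and 2.78, 2.90 and 3.96 TPM at D300. For both arms all D300 samples lay above all D100 samples. At the later stages they stayed between 4.59 and 7.76 TPM and between 1.41 and 4.08 TPM. Between Lat_E and Bir_G gga-miR-29b-2-5p rose by 2.02 (SE 0.303) and gga-miR-29c-5p by 1.37 (SE 0.223), and both overlapped between the periods because of the D36 samples.

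gga-miR-29b-1-5p, from the hairpin next to 29a, stayed the lowest of the 4 from D300 on by its mean. It was 0.282, 0.675 and 0.270 TPM at D36 and 0.814, 1.77 and 0.801 TPM at D100, and ranged from 0.506 to 2.04 TPM from D300 to Y12. Its difference between Lat_E and Bir_G was 0.69 (SE 0.115, adjusted p = 4.2e-06, limma), short of the limit of 1, and edgeR on the recovered reads called it.

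**Figure D3:**
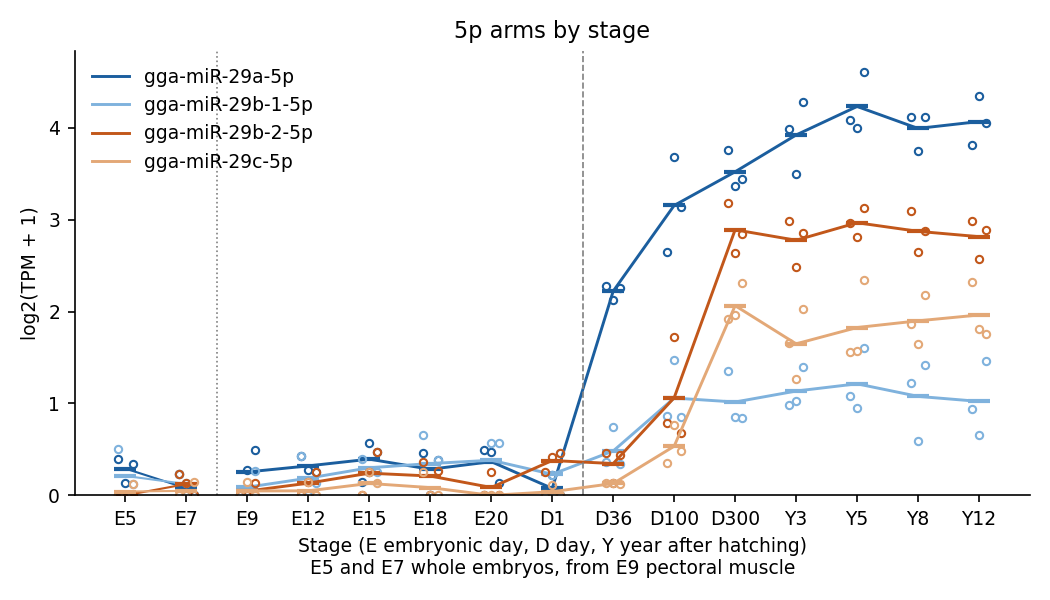
Level of the 4 5p arms, as log2(TPM + 1), at each stage, with 1 open circle per sample and lines joining the means of 3 samples; blue marks the arms of the 29a and 29b-1 pair and orange those of the 29b-2 and 29c pair. gga-miR-29a-5p stands above the others from D36, at a mean of 3.67 TPM, while gga-miR-29b-2-5p goes from a mean of 1.21 TPM at D100 to 6.504 TPM at D300.

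The make-up of the 5p arms therefore shifted within postnatal muscle. gga-miR-29b-2-5p and gga-miR-29c-5p together made up 8.25% ± 3.21 of all miR-29 5p reads at D36 (SD, n = 3), 14.2% ± 3.84 at D100 and 45.7% ± 2.81 at D300. From Y3 to Y12 the mean share was between 33.0% and 36.1%. The D300 samples, at 43.6% to 48.9%, lay above every D36 and D100 sample and overlapped Y12. gga-miR-29b-2-5p made up 42.3% ± 25.8 of the gga-miR-29b 5p reads at D36 and 86.4% ± 2.38 at D300. In muscle from E9 to D1 these shares rest on a few reads and ranged from 0% to 100%.

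4 ratios within a sample, with 1 TPM added to each side, were compared over 3 pairs of periods, with two-sided permutation tests and Benjamini-Hochberg adjustment over the 12 tests. The log2 ratio of gga-miR-29b-3p to gga-miR-29a-3p was -3.48 ± 0.29 in Pre_E, -3.12 ± 0.37 in Lat_E and -3.14 ± 0.43 in Bir_G (SD over samples). None of its 3 differences passed, and that of Pre_E and Lat_E was 0.36 (adjusted p = 0.094, exact permutation test). The added 1 TPM weighs on this ratio in the embryonic samples, where gga-miR-29b-3p is low: with 0.1 TPM the difference of Lat_E and Bir_G was 0.33 in place of -0.02, and that of Pre_E and Bir_G was 0.70 in place of 0.34 and passed. Without a pseudocount gga-miR-29b-3p was 6.81% ± 1.4 of gga-miR-29a-3p in Pre_E, 8.88% ± 2.18 in Lat_E and 11.7% ± 3.40 in Bir_G (SD, n = 6, 12 and 21), and the periods overlapped. By stage, gga-miR-29b-3p was 6.53% ± 0.28 of gga-miR-29a-3p at D36 and 15.4% ± 1.52 at Y8 (SD, n = 3), and no Y8 sample overlapped D36.

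The ratio of the 29a and 29b-1 5p arms to the 29b-2 and 29c 5p arms was 0.81 higher in Bir_G than in Lat_E on the log2 scale (adjusted p = 0.00084, permutation test with 100000 permutations). It was 0.52 with a pseudocount of 0.1 TPM and did not pass there. Nor did it pass with the means of 4 and 7 stages in place of samples. The stage means overlapped between the periods, at 0.602 for E20 and 0.230 for D300. They were highest at D36 (1.896) and D100 (1.985). The added 1 TPM weighs on this ratio too, as each of these arms was at most 0.571 TPM in every Lat_E sample. With no pseudocount, 29b-2 and 29c gave 33.1% ± 30.01 of all miR-29 5p reads in Lat_E and 29.5% ± 13.01 in Bir_G. These are SD over the 11 and 21 samples that held 5p reads, and the periods overlapped. The ratio of gga-miR-29a-3p to its 5p arm was 2.45 higher in Bir_G than in Lat_E (adjusted p = 3.0e-05, the smallest the 100000 permutations and the adjustment allowed), but 0.45 and not past the threshold with 0.1 TPM added. Without a pseudocount gga-miR-29a-5p was 0.628% ± 0.62 of gga-miR-29a-3p in Lat_E and 0.605% ± 0.28 in Bir_G (SD, n = 12 and 21). The ratio of gga-miR-29b-3p to both of its 5p arms was 3.69 higher in Bir_G than in Lat_E (adjusted p = 3.0e-05, permutation test), and it passed with 0.1 TPM added as well. The added 1 TPM weighs on the size of this difference too. gga-miR-29b-1-5p and gga-miR-29b-2-5p averaged 0.258 and 0.181 TPM in Lat_E, against 1.06 and 4.75 TPM in Bir_G.

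Across the 6 tissues at D300 gga-miR-29a-3p was abundant everywhere. It was 2269, 2968 and 2516 TPM in spleen, 2381, 2656 and 2643 TPM in liver, 2738, 2396 and 1849 TPM in pectoral muscle, 2215, 1800 and 2066 TPM in brain, 1458, 1909 and 1541 TPM in ovary, and 855, 1379 and 1170 TPM in kidney. Every one of these samples lay above all muscle samples from E9 to D36. In the order of the means, spleen, liver, muscle, brain, ovary and kidney, no neighbours were called, with adjusted p from 0.094 for ovary and kidney to 0.98 for spleen and liver in limma. Over the 15 pairs of tissues gga-miR-29a-3p was called in 3, each with kidney as the lower tissue.

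The log2 difference of gga-miR-29a-3p in kidney was -1.04 from muscle (SE 0.234, adjusted p = 0.013, limma), -1.20 from liver (SE 0.201) and -1.21 from spleen (SE 0.215). The listed miRNAs of kidney replicate 1 summed to 410664 TPM against 788209 and 847464 TPM in the other kidney samples. Without it, a choice made after the data were seen, gga-miR-29a-3p differed from muscle by -0.86, short of the limit of 1. Only this comparison was refitted without that sample, so whether the calls against liver and spleen hold without it was not tested. The call against muscle was also lost without replicate 2 and, at -0.98, with centring. Relative to the median of the 151 miRNAs that averaged 10 TPM or more, the difference of kidney from liver was -0.01.

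gga-miR-29b-3p had another order, with brain at the top. It was 397, 457 and 399 TPM in brain, 258, 289 and 238 TPM in liver, 225, 228 and 237 TPM in spleen, 264, 210 and 215 TPM in muscle, 104, 183 and 168 TPM in kidney, and 144, 142 and 159 TPM in ovary. No sample of another tissue reached the brain samples. Brain exceeded muscle by 0.86 (SE 0.141, adjusted p = 0.0023, limma), which is under the limit of 1 and was 0.19 with centring and -0.05 without gga-miR-133a-3p in the scaling, and it was called against ovary at 1.49 (SE 0.124) and against kidney, where kidney differed from brain by -1.496 (SE 0.233). The excess of brain over liver, the next tissue, was 0.67 (adjusted p = 0.0066, limma), also under the limit. The call of kidney against brain was lost with centring, where 0 members were called between them. gga-miR-29b-3p was 20.9% ± 3.97 of gga-miR-29a-3p in brain (SD, n = 3), between 9.01% and 13.3% by mean in the other 4 tissues and 10.01% ± 1.46 in muscle, a measure that does not depend on scaling.

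**Figure D4:**
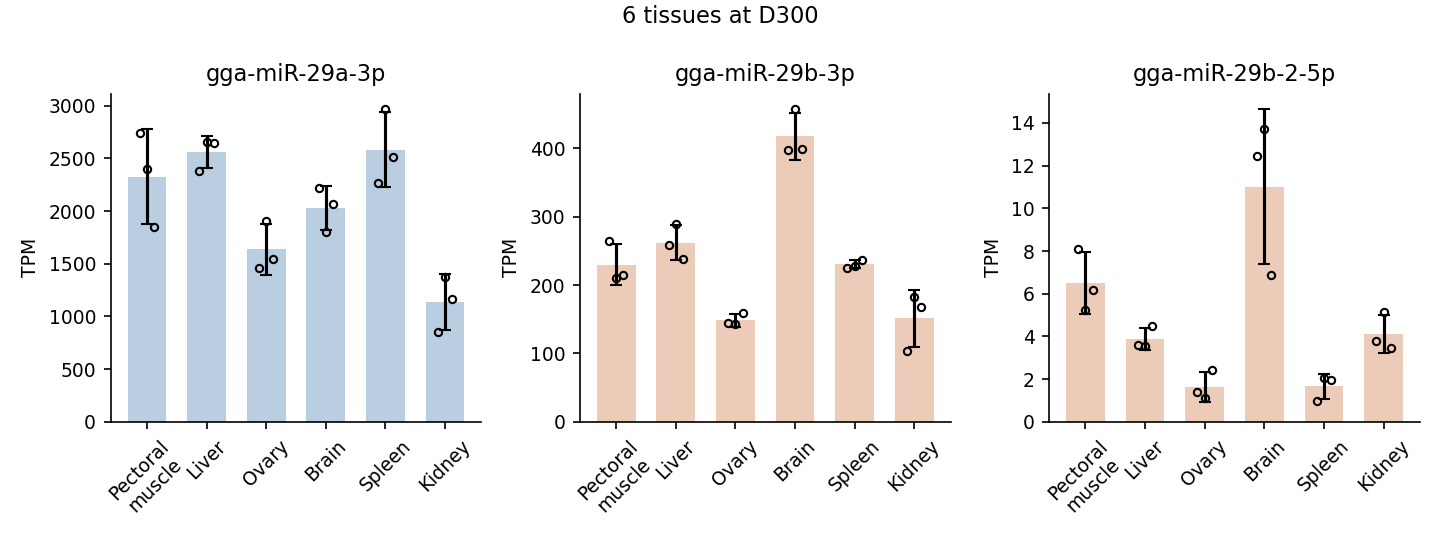
Level in TPM of gga-miR-29a-3p, gga-miR-29b-3p and gga-miR-29b-2-5p in 6 tissues at D300, with bars at the mean of 3 samples, error bars of 1 SD and 1 circle per sample. Brain holds the highest mean of gga-miR-29b-3p, 418 TPM, and of gga-miR-29b-2-5p, 11.01 TPM, while kidney holds the lowest mean of gga-miR-29a-3p, 1134 TPM.

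The 5p arms separated the tissues further. gga-miR-29b-2-5p was 12.5, 13.7 and 6.88 TPM in brain, 3.79, 5.12 and 3.45 TPM in kidney, 3.62, 3.54 and 4.47 TPM in liver, 0.954, 2.03 and 1.97 TPM in spleen and 1.38, 1.10 and 2.44 TPM in ovary. Spleen and ovary lay below the other tissues in every sample. Against the 5.23 to 8.09 TPM of muscle it was different by -1.51 in spleen (SE 0.233, adjusted p = 0.0035, limma) and by -1.52 in ovary (SE 0.238, adjusted p = 0.0030, limma). Brain exceeded liver by 1.25 (SE 0.259) and ovary by 2.17 (SE 0.302), and relative to brain the difference was -2.16 in spleen (SE 0.299) and -1.19 in kidney (SE 0.272), all called. With centring the call in kidney was lost, as 0 members were called between kidney and brain. Members called between brain and ovary then went from 3 higher in brain to 1 higher and 1 lower. Those lower in spleen than in brain went from 2 to 1, and 1 member stayed higher in brain than in liver.

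gga-miR-29c-5p was highest in muscle, at 2.78, 2.90 and 3.96 TPM. Brain held 2.38, 2.14 and 1.39 TPM, and the remaining tissues 0.172 to 1.18 TPM. Its difference from muscle was called in liver (-1.12, SE 0.186), ovary (-1.69, SE 0.162), spleen (-1.59, SE 0.139) and kidney (-1.30, SE 0.161) but not in brain (-0.51, adjusted p = 0.069, limma). For gga-miR-29c-5p the call in liver was lost without replicate 3, at -0.85, and brain was called at -1.18 with centring and at -1.30 with gga-miR-133a-3p left out of the scaling.

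gga-miR-29a-5p was highest in liver, at 26.4, 26.9 and 28.5 TPM, and in spleen, at 19.3, 27.2 and 20.9 TPM. Liver exceeded muscle by 1.30 (SE 0.137, adjusted p = 0.00067, limma) and spleen exceeded it by 1.02 (SE 0.178, adjusted p = 0.0052, limma). Under centring on the median these differences of gga-miR-29a-5p were 0.78 and 0.42, and with gga-miR-133a-3p left out of the scaling 0.74 and 0.44, none of them called. The call in spleen was also lost without replicate 2 or replicate 3. gga-miR-29b-1-5p was 0.551 to 2.43 TPM over the 5 tissues and was not called against muscle in any of them.

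Of the 7 members, those called against muscle were 2 in liver (30.3% of 432 miRNAs called), 2 in ovary (31% of 435), 0 in brain (38% of 505), 3 in spleen (32.2% of 423) and 3 in kidney (30.1% of 419). In brain 3 members reached an unadjusted p of 0.05 with limma, and edgeR called 0. These counts of 0 to 3, in which kidney counts gga-miR-29a-3p and gga-miR-29c-3p separately, are too close to the background to be a result about the family. The share of called miRNAs that were higher than in muscle fell with centring from 64.1% to 40.9% in liver, from 69.6% to 38.8% in ovary, from 74.5% to 52.1% in brain and from 65.4% to 37.1% in spleen, and in kidney it was 35.7%, against 38.6% with centring and 23.1% with gga-miR-133a-3p left out of the scaling. Among the pairs without muscle, the share of miRNAs called was 30.3% for ovary and liver, 36.3% for brain and liver, 23.7% for spleen and liver, 35.6% for kidney and liver and 36.1% for brain and ovary. It was 27.1% for spleen and ovary, 31.4% for kidney and ovary, 38.1% for spleen and brain, 40.2% for kidney and brain and 35.8% for kidney and spleen. The blood and immune cell miRNAs were highest in spleen (79083 to 131806 TPM) and liver (10832 to 22786 TPM), the tissues with the highest mean gga-miR-29a-3p, and lowest in brain (852 to 1295 TPM), and their part in the order of the tissues was not tested.

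The share of 29b-2 and 29c among the 5p arms put brain, kidney and muscle on one side. It was 39.3% ± 6.34 in brain, 33.0% ± 2.95 in kidney and 45.7% ± 2.81 in D300 muscle (SD, n = 3). It was 14.4% ± 0.42 in liver, 10.9% ± 2.67 in ovary and 7.84% ± 1.80 in spleen. No sample of the first 3 tissues overlapped the others. These shares were set side by side without a test.

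**Figure D5:**
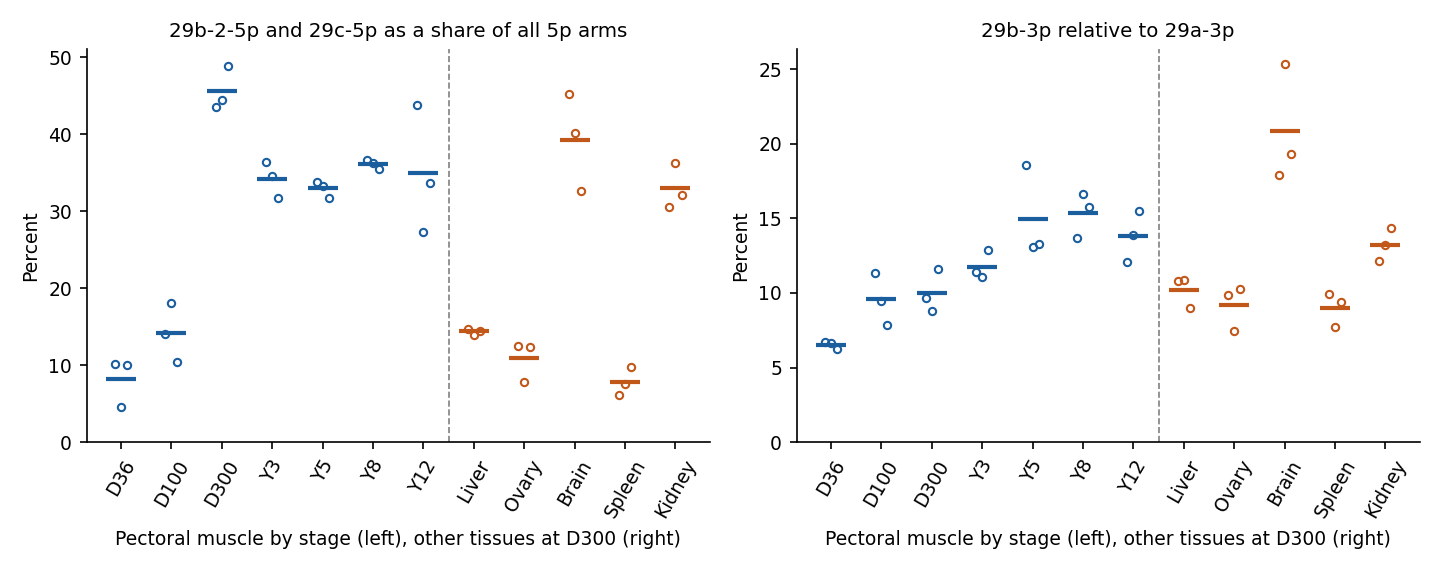
Left, gga-miR-29b-2-5p and gga-miR-29c-5p as a percentage of all miR-29 5p reads; right, gga-miR-29b-3p as a percentage of gga-miR-29a-3p, in postnatal pectoral muscle by stage (blue) and in 5 other tissues at D300 (orange), with 1 circle per sample and a bar at the mean of 3 samples. The left share goes from 8.25% at D36 to 45.7% at D300 in muscle and is 7.84% in spleen, and the right percentage is highest in brain, at 20.9%.

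By likeness of stage means of log2(TPM + 1) over the 13 muscle stages, gga-miR-29a-3p and gga-miR-29b-3p were closest to each other (Pearson r = 0.99). Among 170 other known miRNAs that averaged 10 TPM or more, those most like gga-miR-29a-3p were gga-miR-365-3p (r = 0.97), gga-miR-22-5p (r = 0.97), gga-miR-32-5p (r = 0.96), gga-miR-101-3p (r = 0.96) and gga-miR-142-3p (r = 0.96). For gga-miR-29b-3p they were gga-miR-22-5p, gga-miR-365-3p, gga-miR-32-5p, gga-miR-101-3p and gga-miR-22-3p (r = 0.96 to 0.94). These are descriptions over 13 points that share the step after hatching and the scaling of each library. gga-miR-365-3p averaged 91.8 ± 22.2 TPM in Lat_E and 357 ± 74.0 TPM in Bir_G, gga-miR-22-5p 3.24 ± 1.44 and 54.99 ± 18.2 TPM, and gga-miR-142-3p, a miRNA of blood cells, 6.26 ± 4.56 and 195 ± 59.7 TPM (SD, n = 12 and 21). Over the means of 6 tissues the closest to gga-miR-29a-3p were gga-miR-1729-3p (r = 0.97), gga-miR-1729-5p (r = 0.94) and gga-miR-17-3p (r = 0.93), while gga-miR-29b-3p reached r = 0.61.

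Beside the family stood a list of 21 miRNAs that in mammals have been linked to matrix genes or TGF-beta signalling, 19 of which were tested in muscle. The list was chosen with earlier results of these data known, so its counts are a description and not independent support. From Lat_E to Bir_G 12 of them were called higher and 4 lower, where 13.8% and 14% of all miRNAs were. Their median difference was 2.16, against -0.03 over all miRNAs and 0.26 over the 186 that averaged 10 TPM or more. gga-miR-101-3p rose by 5.88 (SE 0.151), gga-miR-30e-5p by 4.34 (SE 0.155) and gga-miR-26a-5p by 2.35 (SE 0.121). gga-miR-214, which lies with miR-199 in mesenchymal cells, fell by 4.65 (SE 0.288), from 5714 TPM in Lat_E to 221 TPM in Bir_G by mean. gga-miR-30c-5p, of the same family as gga-miR-30e-5p, fell by 1.44 (SE 0.138). How reads of such close relatives were assigned is not given in the sources used here, and its part in this was not tested. From Pre_E to Lat_E 1 of the 19 was called higher and 4 lower, near the 2.11% and 17.2% of all miRNAs. From D1 to D36 13 were called higher and 2 lower, where 14.6% and 6.5% of all miRNAs were.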

How the data were processed

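Small RNA libraries of 60 samples were used. The authors removed adapters with Cutadapt, excluded other small RNAs, predicted further miRNAs with miRDeep2 beside the known ones of miRBase, and gave their values as TPM in 2 tables. The genome build is not given in the sources used here. The deposited values are RPM values made by the authors, reads scaled to 1000000 of a library total, without length correction. The values of all 60 samples are whole multiples of 1 step per sample. In 4 samples this step lay closest to 0.1 TPM, and these were left out of the recovery of reads, which leaves 56. The design had assumed TPM, and tests on a log scale serve either unit. 1 unnamed column was not used, and the depth is given in the report. Counting floors cover counting error only.

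limma 3.58.1 in R 4.3.3 was run on log2(TPM + 1) over every miRNA above 0 in at least 1 sample compared, with Benjamini-Hochberg adjustment over all of them. Known miRNAs of both tables (548) were used for tissues, with 1 fit per pair of tissues. The 12 steps came from 1 fit of 39 samples. Trends took adjusted p alone. The time course used a polynomial of degree 2 in stage order with R-squared of at least 0.6. Ratios had 1 TPM added to each side. edgeR 4.0.16 was an alternative on the recovered reads. Other alternatives were a pseudocount of 0.1 TPM, a mean of at least 1 TPM, centring on the median miRNA, leaving gga-miR-133a-3p out of the scaling, unadjusted p, stage means, 1 fit over all tissues, the replicate number as a block and leaving out each replicate. All members are named, with the 5 miRNAs most like each 3p arm over stages, the 3 most like gga-miR-29a-3p over tissues, and at most 6 of the list of matrix miRNAs. The members, lists and tests were chosen with earlier results of these data known. Scripts were tested on simulated data. Python 3.11.15, NumPy 2.4.6, pandas 2.3.3 and Matplotlib 3.10.9 were used.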

Additional observations from a re-analysis of the deposited data

How the results depend on the processing

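The calls between Lat_E and Bir_G and between Pre_E and Bir_G held for gga-miR-29a-3p and gga-miR-29b-3p under every alternative run. edgeR called 7 members in each. Centring on the median miRNA gave 2 members called between Pre_E and Lat_E in place of 0, 5 in the trend from E9 to D1 in place of 0, 5 in ovary in place of 2, 1 in brain in place of 0, 1 in kidney in place of 3 and 1 pair of tissues for gga-miR-29a-3p in place of 3. In that 1 pair kidney was not the lower tissue. Leaving gga-miR-133a-3p out of the scaling gave 3 members in brain. From Pre_E to Lat_E gga-miR-29a-3p turned from -0.30 to 0.63 with centring and 0.44 without gga-miR-133a-3p. Over D300 to Y12 alone, chosen after seeing the data, the postnatal trend passed for 0 members and that of gga-miR-29b-2-5p was -0.0053. Centring subtracted each sample's median after 1 TPM was added to every value. A miRNA listed at 0 in a sample thus took on the negative of that median. The cause of these changes was not tested.

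With a pseudocount of 0.1 TPM the ratio of gga-miR-29b-3p to gga-miR-29a-3p differed by 0.33 between Lat_E and Bir_G, in place of -0.02, and by 0.70 between Pre_E and Bir_G, in place of 0.34. That of gga-miR-29a-3p to gga-miR-29a-5p differed by 0.45 and 0.26, and that of the 5p arms by -0.10, 0.52 and 0.41 for Pre_E to Lat_E, Lat_E to Bir_G and Pre_E to Bir_G. With stage means the threshold was missed at unchanged differences of 2.16 and 3.48 for the ratios of 3p to 5p arms of 29a and 29b between Pre_E and Bir_G, and of 0.81 and 0.82 for the 5p arms.

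Leaving out each replicate number in turn gave 1 to 2 members called in liver, 0 to 1 in brain and 1 to 3 in kidney. It gave 6 to 11 calls over the 12 steps in place of 13, and 0 to 3 pairs of tissues. The ratio of gga-miR-29b-3p to gga-miR-29a-3p then differed by 0.22 to 0.64 from Pre_E to Lat_E and by -0.20 to 0.066 from Lat_E to Bir_G, the 5p arms by -0.064 to 0.055 from Pre_E to Lat_E and 0.69 to 0.94 from Pre_E to Bir_G, and gga-miR-29b-3p by -0.065 to 0.21 from Pre_E to Lat_E. The labels give no pairing by replicate number, and not every same-numbered pair correlated above 0.1: 66 of 234 pairs of muscle stages and 20 of 45 pairs of tissues did. In muscle 15 of 39 samples correlated best with their own number. In the tissues 15 of 18 did, with a median correlation of 0.060 for the same number and -0.045 for different numbers, a hint of pairing from the data and not from the design. The replicate block changed no count of calls, for example 6 members between Lat_E and Bir_G and 13 calls over the steps. At 0 to 6 reads per library, the embryonic 5p arms are limited by depth.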
